A study of Mus musculus with 6 samples.

Results

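The late step of terminal differentiation, day 4 against day 2 of treatment with 2% DMSO, was measured by mRNA-seq in MEL cells, a mouse erythroleukemia line arrested early in the erythroid lineage. The comparison holds the 2 libraries labelled day 4 and the 2 labelled day 2, that is 4 of the 6 libraries of the series. The 2 untreated day 0 libraries were fitted together with them and so entered the estimate of the spread behind the p-values. They also entered where a gene reversed its early change. The replicates are described as biological, but nothing used here says that they came from separate cultures, so p-values measure the spread between these libraries, and all came from the same transformed line, which limits them as a model of primary erythroblasts. Every gene with a symbol was considered, 23896 in all, each through its transcript with the highest mean count, and 12381 had enough counts to be tested.

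Terminal erythroid differentiation couples the filling of the cell with hemoglobin to the end of proliferation. Globin chains, heme and iron have to arrive together, the membrane skeleton is assembled, and the last divisions are followed by compaction of the nucleus and, in mammals, by its loss. In the same period the machinery for ribosome production and biosynthesis is wound down, and autophagy and ubiquitin-dependent breakdown clear organelles and surplus proteins.

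The day 2 libraries held 39258359 and 45896399 reads on transcripts and the day 4 libraries 35294930 and 45621291. Of reads counted on a transcript or on no annotated feature, the second kind made up 53.77% and 52.7% at day 2 and 58.08% and 58.36% at day 4. The part of this rise in the results was not tested. Defining erythroid markers were present on both days, since none of the 10 in the list of erythroid identity markers was at 0, and 8 of them were higher at day 4. Levels are CPM, counts scaled to a common depth relative to library sizes scaled with edgeR's TMM factors, so they compare 1 gene between libraries and not genes with each other. In bulk libraries, fewer cells of a type and less RNA per cell cannot be told apart. Intervals and limits derived from counts cover counting error only.

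Between day 2 and day 4, 3749 of the 12381 tested genes (30.3%) were called by edgeR's quasi-likelihood test at an adjusted p below 0.05. Of these, 1739 were higher (14%) and 2010 lower (16.2%), and in every called gene both day 4 libraries lay on the same side of both day 2 libraries. The changes were mostly moderate. The median log2 fold change was 0.58 among genes called higher and -0.67 among those called lower, and 257 and 479 of them reached 1 in size. Over all tested genes the median was -0.005, and the median size of a change was 0.28 in this step and 0.53 in the step from day 0 to day 2. Scaling by total counts in place of TMM gave 1228 higher and 2532 lower genes, so that 32.7% of called genes were higher instead of 46.4%. The number of calls rested on the libraries as well: 944, 1622, 2681 and 1464 genes were called without day 2 replicate 1, day 2 replicate 2, day 4 replicate 1 and day 4 replicate 2, in that order, and 5428 and 5431 without the first and the second day 0 library. Where counts with a library left out are given for a gene group, they follow this order of the day 2 and day 4 libraries. Counts of called genes in a group are to be read against the 14% higher and 16.2% lower of all tested genes.

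**Figure D1:**
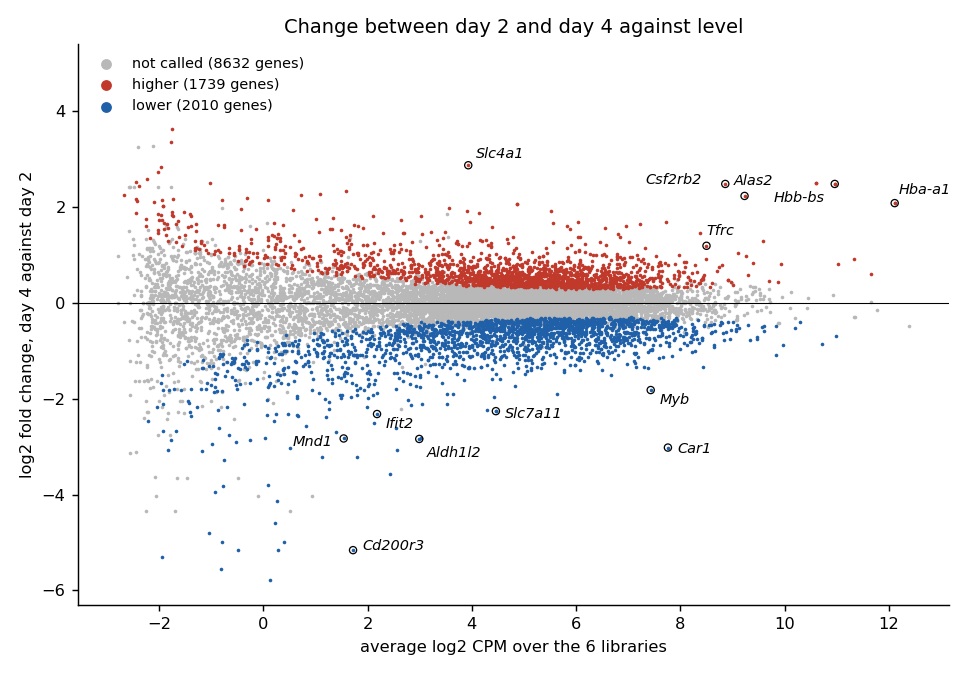
Log2 fold change of day 4 against day 2 (vertical axis) against the average log2 CPM over the 6 libraries (horizontal axis) for the 12381 tested genes, with genes called higher in red, lower in blue and not called in grey. The labelled globin genes Hbb-bs and Hba-a1, Alas2 and Csf2rb2 combine high levels with rises above 2, whereas Car1 and Myb are the labelled falls among highly expressed genes.

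The hemoglobin programme was among the largest rises. Slc4a1 encodes band 3, the anion exchanger that anchors the membrane skeleton, and lies on chromosome 11 from 102348820 to 102365281 (GRCm38). Its level was 4.86 and 6.17 CPM in the day 2 libraries and 47.4 and 33.4 CPM in the day 4 libraries, a log2 fold change of 2.87 (SE 0.19, edgeR adjusted p = 5.25e-05). Alas2, on chromosome X from 150547417 to 150570622, encodes the erythroid enzyme for the first and rate-limiting step of heme synthesis. It stood at 280 and 325 CPM at day 2 and at 1323 and 1510.1 CPM at day 4 (log2 fold change 2.23, SE 0.17, edgeR adjusted p = 5.62e-05). Neither gene had a day 4 library near its day 2 range, and both calls held with any library left out.

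All 9 tested globin genes rose further, with a median log2 fold change of 2.08 against -0.005 for all tested genes. Hbb-bs, an adult beta globin, went from 808 and 1002 CPM to 4969.6 and 5102 CPM (log2 fold change 2.48, SE 0.22, edgeR adjusted p = 0.000103). Within 1%, Hbb-bs and Hbb-b1 had the same counts, as did Hbb-bt and Hbb-b2, and Hba-a1 and Hba-a2, so these near-identical copies were measured as pairs and not apart. The theta-like genes Hbq1a and Hbq1b, which lie beside the alpha globins, were far lower in counts but moved the same way. Hbq1a had 3.78 and 4.76 CPM at day 2 and 13.1 and 15.2 CPM at day 4 (log2 fold change 1.72, edgeR adjusted p = 0.000146), and Hbq1b rose by a log2 fold change of 1.58 (edgeR adjusted p = 0.000105).

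Heme synthesis did not move as a block. Of 24 tested genes of heme synthesis and transport, 8 were higher (33.3%, against 14% of all tested genes) and 3 lower (12.5%, against 16.2%). The median log2 fold change was 0.13. Beside Alas2, Fech, the ferrochelatase that inserts iron, and Ppox, the enzyme before it, rose by log2 fold changes of 0.57 (edgeR adjusted p = 0.0024) and 0.56 (edgeR adjusted p = 0.00361). The transporter genes Abcb6 and Abcb10 rose by 0.92 and 0.67 (edgeR adjusted p = 0.000933 and 0.00408). Cpox, the enzyme that acts just before Ppox, went the other way, from 174 and 169 CPM to 101 and 106 CPM (log2 fold change -0.73, SE 0.12, edgeR adjusted p = 0.00173). Slc25a38, the mitochondrial glycine carrier that supplies the first step, also fell, by a log2 fold change of -0.46 (edgeR adjusted p = 0.0174). Alad, Uros and Urod were not called, at 0.39, -0.24 and 0.27 (edgeR adjusted p = 0.0837, 0.167 and 0.144), but Alad and Urod passed as higher with only the 2 days compared and without either day 0 library, and Alad also with DESeq2 and with no filter. With each library left out 3, 7, 8 and 5 genes were higher. The calls of Fech, Ppox, Abcb10 and Slc25a38 were lost without day 2 replicate 1, those of Ppox, Abcb10 and Slc25a38 also without day 4 replicate 2, and that of Slc25a38 also without day 2 replicate 2.

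Among iron genes, the transcript of the uptake receptor rose in the late step only. Tfrc, the transferrin receptor through which erythroid cells take in iron, was level over the early step and then rose from 254 and 256 CPM at day 2 to 550.2 and 614 CPM at day 4 (log2 fold change 1.19, SE 0.12, edgeR adjusted p = 0.000144). In the day 0 libraries it stood at 255 and 245 CPM, so the day 0 and day 2 libraries overlapped and both day 4 libraries lay above them. Slc25a37, or mitoferrin-1, which carries iron into mitochondria, went from 113 and 131 CPM to 271 and 204 CPM (log2 fold change 0.96, SE 0.14, edgeR adjusted p = 0.00102). The ferritin light chain gene Ftl1 rose by a log2 fold change of 0.91 (edgeR adjusted p = 0.00359), a call lost without day 2 replicate 1, and the heavy chain gene Fth1 by 0.43 (edgeR adjusted p = 0.0256). The iron exporter gene Slc40a1 and the ferrireductase gene Steap3 fell, at -0.39 and -0.44 (edgeR adjusted p = 0.0457 and 0.0175). The iron sensor genes Aco1 and Ireb2 were not called (log2 fold changes 0.04 and -0.22, edgeR adjusted p = 0.832 and 0.133), but Ireb2 passed as lower with only the 2 days compared and without either day 0 library. In all, 7 of 22 tested iron genes were higher (31.8%, against 14% of all tested genes) and 3 lower (13.6%, against 16.2%), with a median of 0.08. Total counts in place of TMM gave 4 and 4, with a median of 0.00, and with each library left out 2, 3, 4 and 3 genes were higher. Fth1 and Slc40a1 lost their calls without any of the 4 libraries of these days, Fth1 also with total counts and Slc40a1 with the replicate block, and Steap3 kept its call only without day 4 replicate 2 or a day 0 library.

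**Figure D2:**
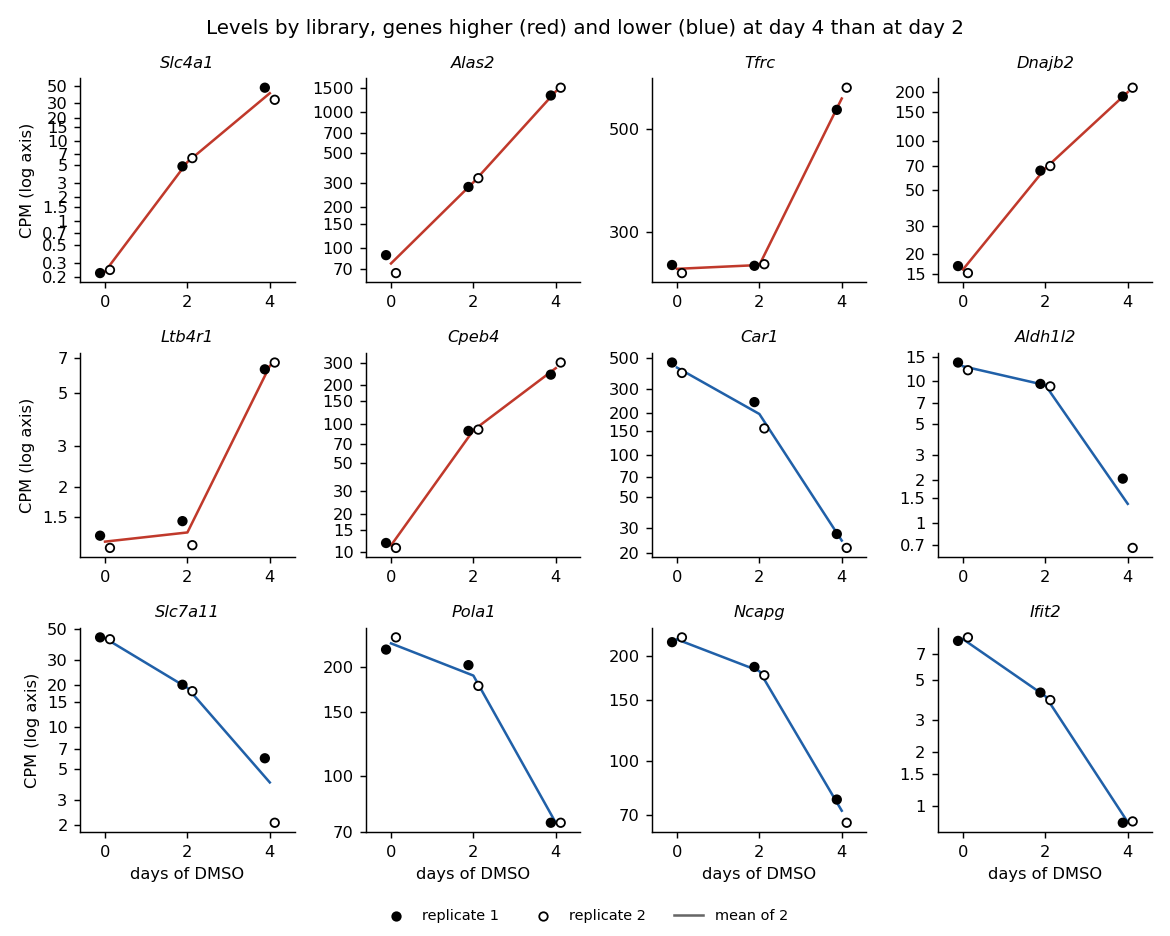
CPM on a log axis for 12 genes by day of DMSO, with replicate 1 filled, replicate 2 open and a line through the mean of 2. Tfrc and Ltb4r1 were level until day 2 and rose after it, Slc4a1, Alas2, Dnajb2 and Cpeb4 rose over both steps, and the 6 genes in blue were lower in both day 4 libraries than in either day 2 library.

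Most of the membrane and skeleton genes that changed were still rising. Of 39 tested genes, 13 were higher (33.3%, against 14% of all tested genes) and 5 lower (12.8%, against 16.2%). The median log2 fold change was 0.24. Sptb, the beta chain of spectrin, rose by a log2 fold change of 0.81 (edgeR adjusted p = 0.00268), Epb41, protein 4.1, by 0.78 (edgeR adjusted p = 0.00182), and Ank1, the ankyrin that links spectrin to band 3, by 0.41 (edgeR adjusted p = 0.0368). Kel, the Kell blood group protein, went from 87.7 and 90.8 CPM to 148 and 164 CPM (log2 fold change 0.80, edgeR adjusted p = 0.000531). The Rhesus group genes Rhd and Rhag were not called (log2 fold changes -0.01 and 0.25, edgeR adjusted p = 0.961 and 0.166), but Rhag passed as higher with only the 2 days compared and without either day 0 library. Ank1 lost its call without any of the 4 libraries of these days and with total counts, and Sptb and Epb41 lost theirs without day 2 replicate 1. The count of higher genes was 6 without day 2 replicate 1 and between 9 and 12 without the other 3 libraries of these days.

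Car1 fell steeply. It encodes carbonic anhydrase 1, an abundant enzyme of adult red cells, and lies on chromosome 3 from 14766214 to 14808365. From 241 and 156 CPM at day 2 it fell to 27.3 and 21.7 CPM at day 4 (log2 fold change -3.02, SE 0.21, edgeR adjusted p = 5.25e-05). Its neighbour and paralog Car2 was not called, with 263 and 258 CPM at day 2 and 234 and 227 CPM at day 4 (log2 fold change -0.18, edgeR adjusted p = 0.217). Icam4, a red cell adhesion protein of macrophage islands, also fell, from 93.1 and 111 CPM to 61.1 and 56.5 CPM (log2 fold change -0.80, edgeR adjusted p = 0.000938).

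Transcription factors of the lineage changed by less. Of 27 tested erythroid factors and partners, 10 were higher (37%, against 14% of all tested genes) and 3 lower (11.1%, against 16.2%). The median log2 fold change was 0.21, and the higher ones included the receptor gene Epor, described below. Gata1 and Klf1, which drive much of the programme, were not called (log2 fold changes 0.27 and 0.03, edgeR adjusted p = 0.0757 and 0.924), although Gata1 passed with DESeq2, with only the 2 days compared and without either day 0 library. Zfpm1, the GATA1 partner FOG1, rose from 380.1 and 393 CPM to 645 and 653 CPM (log2 fold change 0.75, SE 0.11, edgeR adjusted p = 0.00105), and Tal1 rose by 0.52 (edgeR adjusted p = 0.013). Bcl11a, a repressor of fetal globin genes, fell from 47.9 and 39.2 CPM to 21.6 and 16.9 CPM (log2 fold change -1.18, SE 0.16, edgeR adjusted p = 0.000627). Of 20 tested progenitor and myeloid factors 5 fell (25%, against 16.2% of all tested genes) and 1 rose (5%, against 14%). The falls included Myb at -1.82 (edgeR adjusted p = 9.85e-05) and Tcf7l2, a WNT pathway factor, at -1.40 (edgeR adjusted p = 0.0183). Tcf7l2 and Tal1 lost their calls without day 2 replicate 1, day 2 replicate 2 or day 4 replicate 2. Spi1, which encodes PU.1 and is activated by viral insertion in such lines, was at 12 and 11.8 CPM at day 2 and 10.8 and 6.65 CPM at day 4 and was not called (log2 fold change -0.46, edgeR adjusted p = 0.0992). It passed as lower with no filter, with only the 2 days compared and without either day 0 library or day 4 replicate 1. With each library left out, 2, 4, 9 and 3 erythroid factors were higher and 1, 3, 6 and 3 progenitor factors lower.

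Several receptor and feedback genes of cytokine signalling rose. They were brought together here and form no list of their own. Epor is also counted among the erythroid factors and partners, and Cish and Socs3 among the immediate early and feedback genes. Csf2rb2, a beta subunit of the interleukin-3 receptor on chromosome 15 from 78282507 to 78305721, went from 182 and 216 CPM to 1179 and 1042 CPM (log2 fold change 2.48, SE 0.14, edgeR adjusted p = 1.95e-05). Its close paralog Csf2rb, the common beta subunit, went from 513 and 600.3 CPM to 1437 and 1312 CPM (log2 fold change 1.30, edgeR adjusted p = 0.000158), and reads may be split between them. The annotated microRNA Mir7676-1 lies inside Csf2rb2, shares its counts with Mir7676-2, and followed them (log2 fold change 2.07, edgeR adjusted p = 9.01e-05), so its counts cannot be told apart from fragments of the host transcripts. Epor, the erythropoietin receptor, rose from 214 and 243 CPM to 368 and 460 CPM (log2 fold change 0.86, SE 0.13, edgeR adjusted p = 0.00117). The STAT5 feedback genes Cish, Socs3 and Pim1 rose by 1.20, 1.10 and 0.88 (edgeR adjusted p = 0.000578, 0.00185 and 0.000594), although Socs3 lost its call without day 2 replicate 1.

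Receptors of leukotriene B4, a lipid mediator best known from leukocytes, rose in the late step. Ltb4r1 had 1.44 and 1.14 CPM at day 2 and 6.29 and 6.72 CPM at day 4 (log2 fold change 2.34, SE 0.20, edgeR adjusted p = 9.56e-05). At day 0 its libraries held 1.25 and 1.11 CPM, and the early step was not called (log2 fold change 0.13, edgeR adjusted p = 0.649). The neighbouring Ltb4r2 moved with it, from 0.766 and 1.12 CPM to 4.49 and 4.75 CPM (log2 fold change 2.28, SE 0.23, edgeR adjusted p = 0.000161). The genes lie side by side on chromosome 14, from 55765962 to 55768492 and from 55757922 to 55764066, and reads that run from the upstream gene into the other were not separated here. Apol11b, of the apolipoprotein L family, continued a steep early rise, from 22.4 and 34.9 CPM to 128 and 89.5 CPM (log2 fold change 1.92, edgeR adjusted p = 0.000268).

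Genes for autophagy and for erythroid ubiquitin enzymes were more often higher than lower. Of 43 tested autophagy genes 18 were higher (41.9%, against 14% of all tested genes) and 2 lower, with a median log2 fold change of 0.25. Atg9a, the lipid scramblase of early autophagosomes, went from 30 and 35.4 CPM to 71.1 and 85.9 CPM (log2 fold change 1.26, SE 0.13, edgeR adjusted p = 0.000181). Trp53inp2 and Trp53inp1, which bind the LC3 and GABARAP proteins, rose by 1.28 and 1.02 (edgeR adjusted p = 0.000294 and 0.000446). Sqstm1, the cargo receptor p62, rose from 127 and 135 CPM to 218 and 230.1 CPM (log2 fold change 0.77, edgeR adjusted p = 0.000777). Bnip3l, the NIX receptor through which reticulocytes clear mitochondria, was not called (log2 fold change 0.29, edgeR adjusted p = 0.0614), but passed as higher with DESeq2, with only the 2 days compared and without either day 0 library. Fundc2, an outer mitochondrial membrane protein, fell (log2 fold change -0.77, edgeR adjusted p = 0.0018). Left-out libraries gave 5, 11, 13 and 8 higher genes, and total counts 14.

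Of 34 tested erythroid ubiquitin enzymes and nuclear remodelling genes, 12 were higher (35.3%, against 14% of all tested genes) and 1 lower (2.94%, against 16.2%). The median was 0.18. Ranbp10, a subunit of the CTLH ubiquitin ligase, rose from 66.1 and 69.2 CPM to 145 and 182 CPM (log2 fold change 1.27, SE 0.12, edgeR adjusted p = 0.000146). Ube2h, the conjugating enzyme that works with this ligase, rose by 0.83 (edgeR adjusted p = 0.000639), and Ube2o, which marks ribosomal and other proteins in reticulocytes, from 56 and 61.8 CPM to 98.2 and 96.3 CPM (log2 fold change 0.72, edgeR adjusted p = 0.000726). Marchf8, a ligase that turns over the transferrin receptor, rose by 0.77 (edgeR adjusted p = 0.00123). The left-out counts were 5, 8, 9 and 8 higher.

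The cell cycle machinery fell almost without exception. Of 62 tested genes of DNA replication and deoxynucleotide synthesis 59 were lower and none higher (median log2 fold change -0.78), and of 83 mitosis genes 76 were lower and none higher (median -0.80). Against these stand 16.2% of all tested genes called lower. Total counts gave 59 and 78 lower genes, but they move all tested genes downward (median log2 fold change -0.088). Over all alternatives that kept the day 2 and day 4 libraries, DESeq2 and relative log expression factors included, 59 replication genes and 74 to 79 mitosis genes were lower and none higher. With any 1 of the day 2 and day 4 libraries left out, fewer members of both lists were called lower. The median changes of the same groups in the early step were -0.58 and -0.33.

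Among the replication genes, Pola1, the catalytic subunit of the polymerase that starts each DNA strand, had 202 and 177 CPM at day 2 and 74.1 in both day 4 libraries (log2 fold change -1.35, SE 0.11, edgeR adjusted p = 9.01e-05). Prim1, the primase that works with it, went from 48 and 40.1 CPM to 15.4 and 19.2 CPM (log2 fold change -1.34, SE 0.14, edgeR adjusted p = 0.000181). Tipin, of the fork protection complex, and Gins1, of the replicative helicase, fell by log2 fold changes of -1.30 and -1.28 (edgeR adjusted p = 0.000133 and 0.000316). Rrm2, the regulated subunit of ribonucleotide reductase, fell from 49.7 and 44.7 CPM to 19.2 and 22.5 CPM (log2 fold change -1.18, edgeR adjusted p = 0.000161). All 6 MCM genes of the helicase ring were lower, with Mcm3 at -0.91 (edgeR adjusted p = 0.000848), Mcm6 at -0.71 (edgeR adjusted p = 0.00584) and Mcm2 at -0.46 (edgeR adjusted p = 0.0188). Mcm6 and Mcm2 lost their calls without day 2 replicate 1 or day 4 replicate 1, Mcm2 also without day 2 replicate 2, and Mcm4 (-0.38) without any of the 4 libraries of these days.

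Among the mitosis genes, Ncapg, a condensin subunit, went from 186 and 176 CPM to 77.6 and 66.6 CPM (log2 fold change -1.33, SE 0.12, edgeR adjusted p = 9.56e-05). The spindle checkpoint kinase gene Ttk and the spindle motor gene Kif15 both fell by a log2 fold change of -1.25 (edgeR adjusted p = 0.000161 and 0.000681). Ttk was level over the early step, with 45.1 and 41.2 CPM at day 0 and 48.9 and 41 CPM at day 2, before it reached 19.4 and 18.3 CPM at day 4. Cdk1, the kinase that drives entry into mitosis, likewise went from 292 and 242 CPM at day 0 and 229.9 and 232 CPM at day 2 to 109 and 104 CPM at day 4 (late log2 fold change -1.12, SE 0.12, edgeR adjusted p = 0.000206). Mki67, the proliferation marker Ki-67, had 1955 and 1962 CPM at day 2 and 999 and 1157 CPM at day 4 (log2 fold change -0.86, edgeR adjusted p = 0.00145), so its transcript was lower but far from absent.

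**Figure D3:**
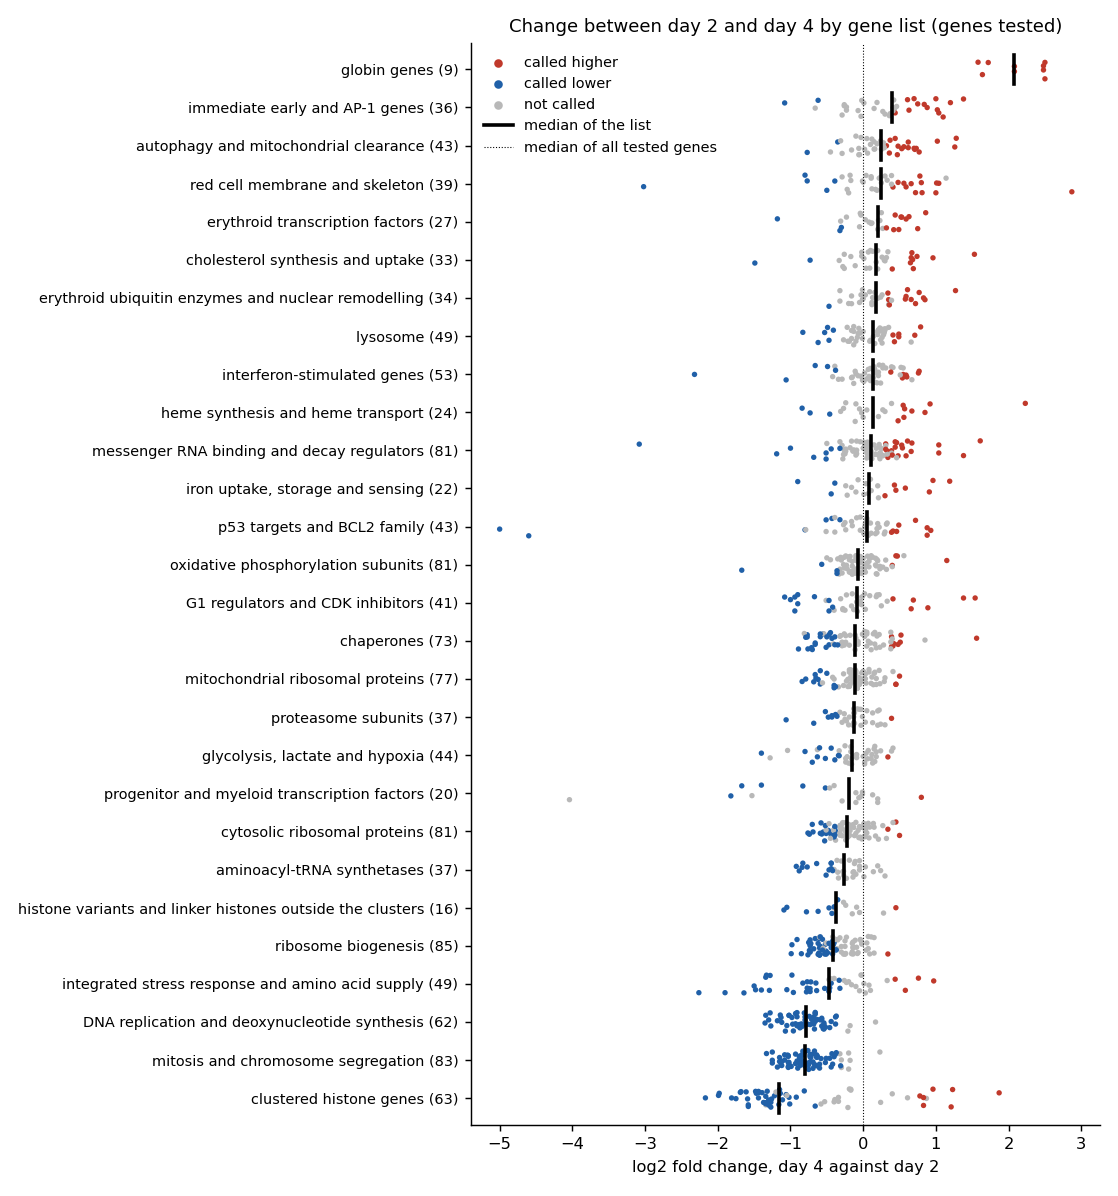
Log2 fold change of day 4 against day 2 for the tested members of the gene lists other than cell type markers, with list sizes in parentheses, called genes in red and blue, the median of each list as a bar and the median of all tested genes as a dotted line. The globin list lies wholly above 1, the replication and mitosis lists lie almost wholly below 0, and most other lists straddle the dotted line.

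Regulators of the G1 phase were called in both directions. Of 41 tested genes 6 were higher (14.6%, against 14% of all tested genes) and 10 lower (24.4%, against 16.2%). Cdkn2b, the CDK inhibitor p15, was level until day 2 and then went from 1.22 and 1.89 CPM to 4.57 CPM in both day 4 libraries (log2 fold change 1.54, SE 0.23, edgeR adjusted p = 0.00102). Btg2, an antiproliferative gene whose product recruits deadenylases, rose from 47.5 and 55.3 CPM to 130 and 137 CPM (log2 fold change 1.38, SE 0.13, edgeR adjusted p = 0.000123). Cdkn1b, the p27 inhibitor associated with the last erythroid divisions, was not called (log2 fold change 0.33, edgeR adjusted p = 0.146), and nor was Cdkn1a, p21 (-0.51, edgeR adjusted p = 0.097). With only the 2 days compared and without either day 0 library Cdkn1b passed as higher and Cdkn1a as lower, and Cdkn1a also passed with total counts, with no filter and with the replicate block (-0.53). Ccne2, an S phase cyclin, and E2f7, an E2F repressor expressed in S phase, fell by -1.08 and -1.0 (edgeR adjusted p = 0.000488 and 0.000345). Left-out libraries gave 4, 5, 5 and 5 higher and 5, 5, 7 and 6 lower.

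Histone transcripts fell with the cell cycle genes. Of 63 tested genes of the histone clusters 39 were lower (61.9%, against 16.2% of all tested genes) and 7 higher (11.1%, against 14%). The median log2 fold change was -1.16, although the libraries were poly(A)-selected and most replication-dependent histone messages carry no poly(A) tail. H3c11 went from 2.16 and 1.77 CPM to 0.471 and 0.508 CPM (log2 fold change -1.99, SE 0.26, edgeR adjusted p = 0.000504), and H1f1, a linker histone, from 3.86 and 2.26 CPM to 0.61 and 0.729 CPM (log2 fold change -2.17, edgeR adjusted p = 0.00238). H2bc4 was an exception, with 8.84 and 9.85 CPM at day 2 and 37.3 and 31.3 CPM at day 4 (log2 fold change 1.87, SE 0.14, edgeR adjusted p = 5.25e-05). Of the 7 higher cluster genes, 6 encode H2B (H2bc4, H2bc6, H2bc8, H2bc9, H2bc21 and H2bc23) and H1f2 encodes a linker histone. H1f2 lost its call with DESeq2, and H1f2 and H2bc6 lost theirs without either day 2 library or day 4 replicate 2. Outside the clusters, 8 of 16 variant and chromatin protein genes were lower and 1 higher, and with each library left out 1, 1, 5 and 3 were lower. The erythroid linker histone gene H1f0, which had risen early, was not called (log2 fold change -0.05, edgeR adjusted p = 0.748). Without day 2 replicate 1 the cluster counts were 19 lower and 3 higher, and without day 2 replicate 2 they were 30 and 3.

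Genes of ribosome production were also lower. Of 85 tested ribosome biogenesis genes 43 were lower (50.6%, against 16.2% of all tested genes) and 1 higher (1.18%, against 14%). The median log2 fold change was -0.42. Gnl3, the nucleolar protein nucleostemin, went from 116 and 87.9 CPM to 59.6 and 43.2 CPM (log2 fold change -0.99, SE 0.17, edgeR adjusted p = 0.00175), and Nop58, a core protein of box C/D small nucleolar particles, from 181 and 159 CPM to 96.4 and 76.2 CPM (log2 fold change -0.98, SE 0.13, edgeR adjusted p = 0.000613). The group's calls depended on the libraries more than those of the cell cycle genes, with 8, 18, 43 and 10 lower genes when each was left out. In the early step the median of this group was -0.95.

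The ribosome's own proteins fell less. Of 81 tested cytosolic ribosomal protein genes 20 were lower (24.7%, against 16.2% of all tested genes) and 3 higher (3.7%, against 14%), with a median of -0.22. The lower ones included Rpl4, from 2241 and 1874 CPM to 1381 and 1166 CPM (log2 fold change -0.69, edgeR adjusted p = 0.00665), and Rpl3 (-0.70, edgeR adjusted p = 0.00443). Rpl4 lost its call without day 2 replicate 1 or day 4 replicate 2, and Rpl3 without day 2 replicate 2. Many ribosomal protein genes have processed copies in the genome, so their levels are uncertain. Snord83b, a small nucleolar RNA inside an intron of Rpl3, was among the largest rises (log2 fold change 1.97, edgeR adjusted p = 0.00376), with 5.44 and 6.33 CPM at day 2 and 13.9 and 32 CPM at day 4, and lost its call without day 2 replicate 1. The count of lower ribosomal protein genes was 2, 7, 10 and 6 with each library left out and 36 and 37 without a day 0 library. Of 77 mitochondrial ribosomal protein genes 12 were lower and 3 higher, with a median of -0.11. The 15.6% that were lower stood near the 16.2% of all tested genes, and left-out libraries gave 2, 7, 8 and 4 lower and 1, 0, 0 and 0 higher.

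The integrated stress response raises amino acid supply through the factor ATF4, and in erythroid cells its kinase HRI, encoded by Eif2ak1, senses heme. Of 49 tested genes of this response and of amino acid supply 29 were lower (59.2%, against 16.2% of all tested genes). Another 4 were higher (8.16%, against 14%), and the median log2 fold change was -0.47. Slc7a11, the cystine importer, went from 20 and 18 CPM to 5.99 and 2.08 CPM (log2 fold change -2.26, SE 0.32, edgeR adjusted p = 0.000793). Chac1, which degrades glutathione, went from 11.6 and 9.77 CPM to 3.66 and 2.12 CPM (log2 fold change -1.90, SE 0.24, edgeR adjusted p = 0.000414). Phgdh and Psat1, which make serine, fell by -1.33 and -1.34 (edgeR adjusted p = 0.00056 and 0.000716), and Pycr1, which makes proline, by -1.64 (edgeR adjusted p = 0.000894). Aldh1l2, a mitochondrial folate enzyme outside this list and among the largest falls, went from 9.6 and 9.22 CPM to 2.05 and 0.663 CPM (log2 fold change -2.84, SE 0.33, edgeR adjusted p = 0.000282). In each of these genes the second day 4 library was lower than the first, and leaving it out gave 18 lower genes in the list, against 14, 20 and 31 for the other 3. Atf4 itself was lower (-0.65, edgeR adjusted p = 0.023), a call lost without either day 2 library or day 4 replicate 2.

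The 4 higher members of this list were Eif2ak1, Ppp1r15a, Slc6a9 and Slc43a1. Eif2ak1 rose from 77.5 and 80.6 CPM to 109.7 and 127 CPM (log2 fold change 0.58, edgeR adjusted p = 0.00453). Ppp1r15a, which encodes the phosphatase subunit that ends the response, rose by 0.76 (edgeR adjusted p = 0.00102). Slc6a9 encodes the glycine transporter of erythroid cells, glycine being a substrate of heme synthesis. It went from 32.5 and 36.5 CPM to 65.2 and 70.2 CPM (log2 fold change 0.97, SE 0.15, edgeR adjusted p = 0.00121). Eif2ak1 and Slc43a1 lost their calls without day 2 replicate 1 or day 4 replicate 2.

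Protein synthesis and folding genes followed the decline in part. The shares lower were 32.4% for aminoacyl-tRNA synthetases, 28.8% for chaperones and 21.6% for proteasome genes, against 16.2% of all tested genes. The shares higher were 0%, 11% and 2.7%, against 14%. The proteasome list had a median log2 fold change of -0.13. None of 37 tested aminoacyl-tRNA synthetase genes was higher and 12 were lower, with Eprs falling from 391 and 348 CPM to 224 and 166 CPM (log2 fold change -0.92, SE 0.15, edgeR adjusted p = 0.00143). With each library left out, 4, 6, 15 and 5 were lower. Of 73 chaperone genes 21 were lower and 8 higher, and 5, 9, 14 and 9 were lower with each library left out. The falls included the mitochondrial chaperone gene Hspa9 (log2 fold change -0.89, edgeR adjusted p = 0.00122) as well as Cct6a, a chaperonin subunit gene (-0.77, edgeR adjusted p = 0.00146). Dnajb2, a co-chaperone that binds ubiquitin chains, rose from 65.4 and 69.8 CPM to 187 and 212 CPM (log2 fold change 1.56, SE 0.11, edgeR adjusted p = 5.25e-05). Of 37 proteasome genes 8 were lower and 1 higher, and the count of lower ones was 0, 1, 3 and 1 with each library left out and 13 without either day 0 library.

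Oxidative phosphorylation genes changed little as a whole, whereas the called genes of glycolysis were mostly lower. Of 81 tested subunits of oxidative phosphorylation 4 were higher and 4 lower (4.94% each, below the 14% and 16.2% of all tested genes), with a median log2 fold change of -0.07. Of 44 genes of glycolysis, lactate and hypoxia 10 were lower (22.7%, against 16.2%) and 1 higher (2.27%, against 14%), with a median of -0.16. The respiratory chain counts were 3 higher and 9 lower with total counts, 10 and 15 without either day 0 library, and 1, 1, 3 and 1 higher and 1, 0, 2 and 0 lower with each library of the other days left out. Pklr, which encodes the pyruvate kinase of red cells, fell from 36.1 and 35.7 CPM to 15 and 12.1 CPM (log2 fold change -1.40, SE 0.13, edgeR adjusted p = 0.000123). Bpgm, the bisphosphoglycerate mutase that sets oxygen release by hemoglobin, was not called (log2 fold change 0.16, edgeR adjusted p = 0.364). The glycolysis list had a median of -0.82 in the early step, and 3, 5, 5 and 4 of its genes were lower in the late step with each library left out.

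Some cholesterol genes turned upward. Of 33 tested genes 9 were higher (27.3%, against 14% of all tested genes) and 2 lower (6.06%, against 16.2%), with a median of 0.18. Of these 9, 5 had been called lower in the early step. Over all tested genes 1.68% were lower and then higher. Srebf2, which encodes the transcription factor of this pathway, went from 66.4 and 74 CPM at day 2 to 104 and 118 CPM at day 4 (log2 fold change 0.66, edgeR adjusted p = 0.00167), a call lost without day 2 replicate 1. Mylip, which encodes a ubiquitin ligase, rose from 20.4 and 21.6 CPM to 37 and 44.7 CPM (log2 fold change 0.96, edgeR adjusted p = 0.000845). It did not turn, since it had also risen in the early step (log2 fold change 1.48, edgeR adjusted p = 9e-06). The left-out counts were 3, 6, 8 and 6 higher.

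Regulators of messenger RNA were called in both directions. The share higher was 24.7%, against 14% of all tested genes, and the share lower 9.88%, against 16.2%. With total counts 1228 of all tested genes were higher and 2532 lower. Of 81 tested genes 20 were higher and 8 lower (median 0.11), whereas total counts gave 12 higher and 13 lower, and with each library left out 4, 5, 11 and 5 were higher and 2, 5, 7 and 3 lower. Cpeb4, which binds cytoplasmic polyadenylation elements and represses translation in terminal erythropoiesis, rose from 88.4 and 90.5 CPM to 243 and 302 CPM (log2 fold change 1.61, SE 0.12, edgeR adjusted p = 6.29e-05), after 11.8 and 10.8 CPM at day 0. Appl2, counted in this list although it encodes an endosomal adaptor, rose from 25.5 and 25.4 CPM to 47.8 and 56.4 CPM (log2 fold change 1.04, edgeR adjusted p = 0.00047). Zfp36, which directs AU-rich messages to decay, rose by 1.04 (edgeR adjusted p = 0.00245), lost without day 2 replicate 1. Mbnl3, a muscleblind splicing factor, fell from 26.6 and 21.9 CPM to 11.2 and 10 CPM (log2 fold change -1.19, SE 0.14, edgeR adjusted p = 0.000294), and Dkc1, the pseudouridine synthase of box H/ACA particles, fell by 0.68 on the log2 scale (edgeR adjusted p = 0.00344), lost without day 2 replicate 1 or day 4 replicate 2.

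Immediate early and feedback genes were higher in 13 of 36 tested (36.1%, against 14% of all tested genes) and lower in 2 (5.56%, against 16.2%). The median log2 fold change was 0.39. The rises included Dusp1, a MAP kinase phosphatase, from 26.6 and 26.8 CPM to 48.8 and 59.3 CPM (log2 fold change 1.02, edgeR adjusted p = 0.000628), and Junb, an AP-1 subunit (0.70, edgeR adjusted p = 0.00357). Fos and Jun were near the detection limit on both days, under 0.2 CPM in each of the 4 libraries, and were not called. Sgk1, a kinase induced by glucocorticoids, fell (log2 fold change -1.08, edgeR adjusted p = 0.00396). Sgk1 and Junb lost their calls without day 2 replicate 1. Left-out libraries gave 7, 11, 12 and 12 higher genes.

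Among survival genes, a protective and a death-promoting member both rose. In the list of p53 targets and the BCL2 family 8 of 43 tested genes were higher (18.6%, against 14% of all tested genes) and 6 lower (14%, against 16.2%), and the median was 0.05, or -0.04 with total counts. Bcl2l1, which encodes the BCL-XL protein that protects late erythroblasts, went from 9.34 and 9.12 CPM to 15.7 and 18.2 CPM (log2 fold change 0.88, SE 0.13, edgeR adjusted p = 0.00104). Bcl2l11, which encodes the death-promoting BIM, rose by the same log2 fold change of 0.88 (edgeR adjusted p = 0.00101), from 39.2 and 45.7 CPM to 70.3 and 86 CPM. Bik, another BH3-only gene, fell from 9.6 and 10.5 CPM to 5.6 and 5.99 CPM (log2 fold change -0.80, edgeR adjusted p = 0.00304). With each library left out 3, 4, 5 and 4 of the list were higher and 1, 2, 1 and 2 lower.

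Interferon-stimulated and lysosomal genes were called in both directions, in shares near or below those of all tested genes, of which 14% were higher and 16.2% lower. Of 53 tested interferon genes 7 were higher (13.2%) and 5 lower (9.43%), 2 and 6 with total counts, and 0, 1, 9 and 1 were higher and 2, 2, 2 and 3 lower with each library left out. Ifit2, which binds viral RNA, fell from 4.26 and 3.87 CPM to 0.804 and 0.818 CPM (log2 fold change -2.32, SE 0.20, edgeR adjusted p = 9.48e-05), a call that held with any library left out. Rsad2, which encodes viperin, was higher (0.76, edgeR adjusted p = 0.0389), a call lost with DESeq2, with total counts, with the replicate block and without either day 2 library or day 4 replicate 2. Of 49 lysosomal genes 6 were higher and 6 lower (12.2% each), the higher ones led by Smpd1, the acid sphingomyelinase (0.79, edgeR adjusted p = 0.00132), and the lower ones by Lipa, the acid lipase (-0.83, edgeR adjusted p = 0.00272, lost without day 2 replicate 1). With each library left out 1, 2, 4 and 2 were higher and 0, 1, 5 and 1 lower, and without either day 0 library 14 were higher.

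Genes that reversed their early change were counted where both steps were called in opposite directions. The 2 steps share the day 2 libraries, so a deviation of those libraries alone gives opposite changes in both steps, and the counts are given as a description. Of the 12381 tested genes, 270 (2.18%) were higher at day 2 than at day 0 and then lower at day 4, and 208 (1.68%) were lower and then higher. With both steps at least 1 in log2 size there were 27 and 14. At day 4 most of them could not be told from day 0 by the same fit: 168 of the 270 and 148 of the 208 were not called for day 4 against day 0, while 79 of the 270 were still higher than at day 0 and 53 of the 208 still lower. These counts moved with the scaling, to 535 and 91 with total counts, and with each library left out, to 39, 67, 140 and 109 for the first kind and 18, 55, 103 and 51 for the second, or 430 and 424 without day 0 replicate 1 and 395 and 379 without day 0 replicate 2.

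Mnd1 was among the genes that peaked at day 2. It encodes a partner of the meiotic and homologous recombination machinery, and its level was 1.96 and 2.42 CPM at day 0, 5.82 and 5.25 CPM at day 2 and 0.859 and 0.707 CPM at day 4. The early log2 fold change was 1.33 (edgeR adjusted p = 0.000152) and the late one -2.83 (edgeR adjusted p = 7.85e-05). The processed pseudogene Mnd1-ps followed it (1.38 and -2.50), and reads of the 2 may be shared. Septin4, a filament-forming GTPase, rose from 1.15 and 1.17 CPM to 9.37 and 8.47 CPM and then fell to 2.44 and 3.38 CPM (late log2 fold change -1.60, edgeR adjusted p = 0.000301). Crip1, a LIM domain protein, had 58.4 and 40.2 CPM at day 0, 104 and 118 CPM at day 2 and 35.6 and 47.9 CPM at day 4 (late log2 fold change -1.41, edgeR adjusted p = 0.000488). Cacna1c, a calcium channel subunit, and Apol8, of the apolipoprotein L family, kept part of their early rise, with net log2 fold changes of 1.87 and 1.77 (edgeR adjusted p = 1.13e-05 and 3.16e-05) after late ones of -0.99 and -1.0. Hebp1, a heme-binding protein, also peaked, with 17.1 and 14.9, then 90.9 and 84.1, then 49.6 and 48 CPM (late log2 fold change -0.84, edgeR adjusted p = 0.000531). The remaining genes named by the same rule were Camkv, Bahcc1, Pwwp3b and B4galnt2, with late log2 fold changes of -1.23, -1.51, -1.05 and -1.49. B4galnt2 and Pwwp3b lost their late calls without day 2 replicate 1, day 2 replicate 2 or day 4 replicate 2, and Apol8 without day 2 replicate 2.

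**Figure D4:**
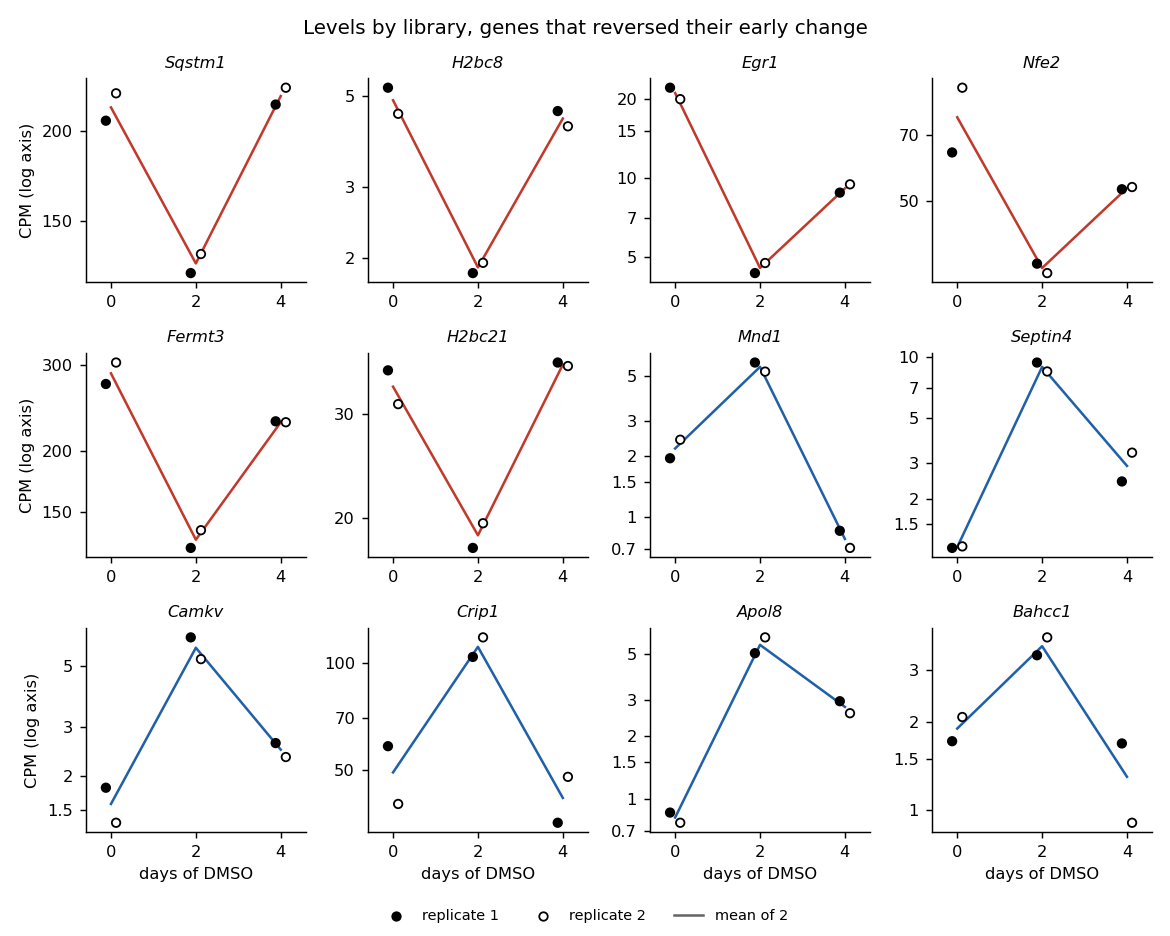
CPM on a log axis by day of DMSO for 6 genes lower at day 2 and then higher at day 4 (red) and 6 genes higher and then lower (blue), with replicate 1 filled, replicate 2 open and a line through the mean of 2. Sqstm1, H2bc8 and H2bc21 returned to near their day 0 level, whereas Egr1 and Nfe2 stayed below it and Septin4 and Apol8 stayed above it.

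Egr1, a growth factor-induced zinc finger factor, dipped at day 2. It went from 22 and 19.9 CPM at day 0 to 4.34 and 4.74 CPM at day 2 and 8.78 and 9.44 CPM at day 4 (late log2 fold change 1.00, SE 0.14, edgeR adjusted p = 0.000776) and so recovered in part. H2B genes recurred here as well. H2bc8 had 5.25 and 4.53, then 1.84 and 1.95, then 4.6 and 4.22 CPM (late log2 fold change 1.21, edgeR adjusted p = 0.00112), and H2bc21 had 35.6 and 31.2, then 17.8 and 19.6, then 36.7 and 36.2 CPM (0.96, edgeR adjusted p = 0.000417). H2bc9 and H2bc23 followed at 0.83 each (edgeR adjusted p = 0.0265 and 0.0104), H2bc23 sharing its counts with H4bc24. H2bc9 lost its late call with DESeq2 and without any of the 4 libraries of these days, and H2bc23 without either day 2 library. Fermt3, the integrin activator kindlin-3, had 274 and 303, then 127 and 138, then 230 and 229 CPM (late log2 fold change 0.79, edgeR adjusted p = 0.000741).

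Nfe2, the erythroid subunit of the NF-E2 factor, dipped from 64 and 88.9 CPM to 36.4 and 34.7 CPM and came back to 53.1 and 53.7 CPM (late log2 fold change 0.59, edgeR adjusted p = 0.0112), a call lost without either day 2 library or day 4 replicate 2. Its small MAF partner gene Mafg did likewise, with 19.5 and 25.5, then 8.53 and 10.4, then 13.9 and 15.4 CPM (0.63, edgeR adjusted p = 0.015), a call lost without day 2 replicate 1 or day 4 replicate 2. Sqstm1 and Bcl2l1, described above, also fell early and rose late, with early log2 fold changes of -0.72 and -0.65 (edgeR adjusted p = 0.000195 and 0.00138). Gata2, a progenitor factor, dipped from 6.81 and 6.23 CPM to 4.17 and 4.07 CPM and rose to 6.93 and 7.36 CPM (late log2 fold change 0.80, edgeR adjusted p = 0.00356, lost without day 2 replicate 1).

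Most called markers of other lineages fell. The shares lower were 27.3% for mast cell, 35.7% for macrophage, 50% for lymphocyte and 40% for stromal markers, against 16.2% of all tested genes. In the same order the shares higher were 18.2%, 0%, 25% and 0%, against 14%. Mast cell and basophil markers summed to 71.3 and 63 CPM at day 2 and 65.7 and 66.3 CPM at day 4, with 3 of 11 tested genes lower and 2 higher, and Mcpt8, Tpsb2, Tpsab1 and Prss34 were at 0 in all 4 libraries. Hdc, which makes histamine, went from 1.29 and 0.957 CPM to 0.277 and 0.199 CPM (log2 fold change -2.24, edgeR adjusted p = 0.000561), and Il1rl1, the receptor of interleukin-33, from 7.59 and 6.25 CPM to 1.8 and 1.15 CPM (-2.25, edgeR adjusted p = 0.000181). The 2 higher ones were Gata2, described above, and Fcer1g. Fcer1g went from 17 and 16.1 CPM to 25.3 and 26.8 CPM (log2 fold change 0.65, edgeR adjusted p = 0.00852). Macrophage, monocyte and granulocyte markers summed to 192 and 196 CPM at day 2 and 165 and 164 CPM at day 4, with 5 of 14 lower, and Ctsg, S100a8, S100a9, Camp and Ly6c1 were at 0. Lymphocyte markers summed to 10.3 and 10.6 CPM at day 2 and 6.1 and 4.86 CPM at day 4 (1 higher and 2 lower of 4 tested), and stromal and endothelial markers to 9.8 and 10.1 CPM and 4.9 and 3.91 CPM (2 lower of 5 tested). The single higher lymphocyte marker was Cd3d, on 7 counts at day 2 and 28 at day 4, and the lower ones were Cd3g and Lck. Cd3d and Cd3g lost their calls without either day 2 library, and Cd3g also without day 4 replicate 1 and with DESeq2. Without day 2 replicate 1 there were 2 lower macrophage markers, no higher mast cell marker and 1 lower stromal marker. Cd8a, Cd2, Ms4a1, Pax5, Nkg7 and Klrb1c were at 0, as were Col3a1, Dcn, Lum, Acta2 and Cdh5. The part of these markers in the other results was not tested.

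The megakaryocyte and platelet list ran against this trend in sum, from 279 and 302 CPM at day 2 to 614 and 686 CPM at day 4, and a single gene made most of that rise. Itga2b, the platelet integrin alpha chain CD41 that early hematopoietic cells also carry, went from 196 and 219 CPM to 531 and 606 CPM (log2 fold change 1.46, SE 0.13, edgeR adjusted p = 9.56e-05). Of the other 11 tested markers Gp1ba was higher (0.60, edgeR adjusted p = 0.0499), a call lost under DESeq2, total counts, the replicate block, 1 transcript per gene and without any of the 4 libraries of these days. Pf4, platelet factor 4, fell from 14.2 and 12.9 CPM to 10.2 and 8.93 CPM (-0.50, edgeR adjusted p = 0.0361), a call lost without any of these 4 libraries, and Gp5, a subunit of the same receptor as Gp1ba, fell by -1.28 (edgeR adjusted p = 0.00165). Gp6 and Thbs1 were at 0. The list's shares were 16.7% higher and 16.7% lower, against 14% and 16.2% of all tested genes.

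Several of the steepest falls rested on few counts. Over both libraries of a day, 190 called genes summed to at most 30 counts at day 2 or day 4, and 10 of these had no count at day 4. Cd200r3, a receptor of basophils and mast cells, had 7 and 2 counts at day 2 and 0 in both day 4 libraries, at least 2.68-fold lower against a limit of 3 counts over the day 4 libraries. Tyrobp, an immunoreceptor adaptor, had 23 counts at day 2 and 2 at day 4, a ratio of 10.3 (exact 95% counting interval 2.54 to 90.1), and Gzmb, granzyme B, had 25 and 3, a ratio of 7.46 (2.28 to 38.6). Cd200r3 lost its call without day 2 replicate 1 or either day 4 library. Without day 2 replicate 1 or day 4 replicate 2 the calls of Tyrobp and Gzmb were lost, and the log2 fold change of Gzmb ranged from -6.66 to -1.70 over the left-out libraries. Better supported were Traf3ip3, with 70 counts at day 2 and 5 at day 4 (log2 fold change -3.58, SE 0.46, edgeR adjusted p = 0.000484), Frmpd1, with 127 and 12 (-3.21, SE 0.33, edgeR adjusted p = 0.000161), and Gml, with 110 and 15 (-2.69, edgeR adjusted p = 0.00201). Igf2bp2, an RNA-binding protein of fetal tissues, had 30 counts at day 2 and 3 at day 4, a ratio of 8.95 (2.78 to 45.8), and lost its call without day 2 replicate 1.

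The promoters of the gene groups that moved together were read for short factor motifs. The windows were those of RefSeq on GRCm38.p6, 250 bases before to 50 after a start, 12235 windows for 9680 of the 12381 tested genes. Both strands were searched for the GATA motif (AGATAA or TGATAA), the E2F motif (TTTCCCGC or TTTGGCGC), the cell cycle homology region or CHR (TTTGAA), the CCAAT box (CCAAT) and the CACCC box of Kruppel-like factors (CCACCC). Over all 32851 windows of the table, the shares were 18.6% for GATA, 1.56% for E2F, 17.9% for CHR, 37.4% for CCAAT and 31.5% for CACCC. A match is a string of letters and not a measured site.

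In the mitosis list, CHR letters stood in 50 of its 76 windows (65.8%), against 12.1% of the windows of all tested genes, 17.2% of those called lower and 9.39% of those called higher, and CCAAT letters stood in 73.7% against 38.5%. The replication list held E2F letters in 15 of 64 windows (23.4%), against 2.98% of all tested genes, 5.81% of those called lower and 1.54% of those called higher. GATA letters stood in 10.9% of the windows of genes called higher and in 12.4% of those called lower, against 10.8% of all tested genes. The shares were highest in 2 small lists that rose, with 4 of 7 globin windows (57.1%) and 5 of 8 erythroid identity windows (62.5%). They were 26.8% for the red cell membrane list and 22.5% for the erythroid factor list, but 11.1% for the heme list. In the clustered histone list and the mast cell list, most of whose called members fell, they were 22% and 40%. For CACCC letters the shares were 38.2% for genes called higher, 37.3% for those called lower and 36.9% for all tested genes. By list they were 57.1% for globins and 87.5% for erythroid identity markers. The progenitor factor list, most of whose called members fell, also stood at 57.1%.

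These 5 stretches show these letters, each the 150 bases before a start, written 5′ to 3′ on the strand of the gene, with the motif named here in capitals on either strand. Alas2 (chrX:150547267-150547416, plus strand) and Epor (chr9:21963577-21963726, minus strand) hold a GATA motif and rose. Mcm6 (chr1:128359706-128359855, minus strand) holds the E2F motif more than once, and Cdk1 (chr10:69352913-69353062, minus strand) and Kif15 (chr9:122950931-122951080, plus strand) hold CHR letters, and all 3 genes fell. They were chosen for display because their windows hold the letters and start where the measured transcript starts.
Alas2: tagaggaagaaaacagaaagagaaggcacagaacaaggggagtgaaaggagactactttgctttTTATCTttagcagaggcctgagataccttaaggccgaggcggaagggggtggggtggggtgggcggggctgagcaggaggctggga
Epor: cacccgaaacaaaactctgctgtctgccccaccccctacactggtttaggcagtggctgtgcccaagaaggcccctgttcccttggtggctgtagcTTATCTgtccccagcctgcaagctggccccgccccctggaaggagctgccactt
Mcm6: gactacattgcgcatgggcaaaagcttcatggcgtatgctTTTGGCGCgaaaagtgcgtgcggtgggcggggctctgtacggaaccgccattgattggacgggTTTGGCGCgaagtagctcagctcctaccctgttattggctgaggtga
Cdk1: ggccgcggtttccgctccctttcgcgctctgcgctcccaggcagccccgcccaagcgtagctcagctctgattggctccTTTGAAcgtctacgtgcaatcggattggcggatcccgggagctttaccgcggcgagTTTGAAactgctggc
Kif15: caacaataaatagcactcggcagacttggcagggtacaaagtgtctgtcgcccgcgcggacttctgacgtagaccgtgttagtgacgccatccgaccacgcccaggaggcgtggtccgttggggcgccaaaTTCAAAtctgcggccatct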

How the data were processed

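Poly(A) RNA of MEL cells was sequenced with a stranded kit. Per the submitters' processing notes, cutadapt, TopHat, HTSeq and DESeq2 were used with build mm10. The strand setting and annotation release of the counting are not given in the sources used here. The authors deposited raw counts per RefSeq transcript for each library, and rows of unassigned reads were left out. Reads on no feature were 50.53% to 58.36% of those on a transcript or on no feature. Of 32654 transcripts, 32199 were named by the RefSeq table and 187 by GENCODE, and 268 had no symbol.

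Counts were filtered by expression within a day, scaled by TMM and fitted with edgeR 4.0.16 in R 4.3.3 (quasi-likelihood test) to the 6 libraries together, 1 mean for each day, with Benjamini-Hochberg adjustment over all transcripts that passed and a threshold of 0.05. Each gene was then read from its transcript with the highest mean count. The fit was tested on simulated data. DESeq2 1.42.0, other scalings, no filter, the 2 days alone, a replicate block and left-out libraries were tried as alternatives. The differences between replicates correlated by 0.0316 to 0.0791 between days, so little of them was shared across days by replicate number. This cannot show whether samples with the same number were paired, which is not stated in the sources used here.

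The comparison, the gene lists and the rules were chosen with earlier results of these data known. Named genes were the 15 largest rises and falls and the 10 strongest reversals of each kind at an average log2 CPM of at least 1, the 4 most changed called members of each list and defining members. Further genes that the text describes, such as Car2, Icam4, Appl2, Fth1, Slc40a1, Rrm2, Mki67, Phgdh and Igf2bp2, were chosen after their values were seen and went through the same alternatives. Some genes are not reported here.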

Additional observations from a re-analysis of the deposited data

Results flagged for a closer look

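Reads on no annotated feature enter no comparison. Their share among reads on a transcript or on no feature was larger in both day 4 libraries than in either untreated library. The share was 58.08% and 58.36% at day 4, 53.77% and 52.7% at day 2 and 50.53% and 54.11% at day 0. Its part in the results was not tested.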

How the results depend on the processing

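A minimum size of 1 on the log2 scale left 736 called genes, 257 higher and 479 lower, with 27 genes higher and then lower and 14 lower and then higher. Fitting only the 2 days compared gave 2609 higher genes and 350 that dipped and rose, and scaling by total counts gave 535 that peaked and 91 that dipped. Leaving out 1 library gave 944 to 5431 called genes, 327 to 2591 higher, 617 to 2840 lower, 39 to 430 that peaked and 18 to 424 that dipped. The cause of these shifts was not tested. The fit with the replicate block called 3689 genes, and it is not stated whether samples with the same replicate number were paired. With DESeq2 3634 genes were called, with relative log expression factors 3770 and without the filter 4312. Some genes that were not called changed sign. With total counts Aco1 was at -0.04, Klf1 at -0.06 and Jun at -0.07. Over the left-out libraries Rhd ranged from -0.18 to 0.14, Klf1 from -0.04 to 0.10, H1f0 from -0.16 to 0.04, Fos from -0.25 to 0.41 and Jun from -0.55 to 1.16, and Rhd was at 0.07 without day 2 replicate 2 and Jun at -0.39 without day 4 replicate 2. No called gene named in the text changed sign under these settings.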
